A study of Gloeophyllum trabeum and Trametes versicolor with 18 samples.

Results

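In *Trametes versicolor*, 77 of 15606 measured transcripts, or 0.493%, were at similar levels on glucose and on high-melanin fungal necromass and at least 4 times lower on low-melanin fungal necromass. Members were chosen from the deposited TPM values (a level per unit of transcript length, scaled to the same total in every library). For each carbon source the mean TPM of the 3 libraries was taken and 1 was added. Members had glucose and high-melanin means at least 4 times the low-melanin mean and a ratio of high-melanin to glucose strictly between 0.667 and 1.5. Their highest low-melanin value also lay below the lowest value of the other 6 libraries. The levels on the 3 carbon sources therefore describe how the members were picked and carry no test.

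The A1-ATF strain of *T. versicolor*, a wood-decay fungus of the white-rot kind, was grown alone in liquid culture. For all 3 groups the base was Highley's medium and the sampling time 7 days. Glucose was supplied at 1% (w/v), and low-melanin and high-melanin necromass each at 0.45%, so glucose cultures received more carbon source by weight. The fungus that gave the necromass and the way its melanin content was set are not given in the sources used here. There were 3 libraries per carbon source, and the labels do not say whether these came from separate cultures. The series also holds a second fungus, *Gloeophyllum trabeum*, which brings it to 27486 transcripts. Its transcripts carry other identifiers and were not compared.

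White-rot fungi are known for breaking down wood with secreted oxidative and hydrolytic enzymes, and they adjust many transcripts to the carbon source. Glucose is taken up directly, and in fungi it commonly represses genes for the use of more complex carbon sources. Necromass is dead fungal biomass, made largely of cell wall polysaccharides such as chitin and glucans, of proteins and of lipids, and melanin is a wall pigment known to slow its decay. A transcript that is high both on glucose and on one type of necromass does not follow the simple division between sugar and dead biomass. No annotation of *T. versicolor* was used here, so the members are named by the last part of their identifiers (12928 stands for jgi.p|Traver1|12928), with no protein name, role or sequence. In bulk RNA, fewer cells with a transcript and less of it per cell cannot be told apart.

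Library depth ran from 18301303 to 26514709 estimated counts. All 9 libraries were kept. Libraries of one group differed by far more than sampling noise, with a chi-square per degree of freedom of at least 17.0. It was 35.8 to 95.4 between glucose libraries, 18.9 to 23.7 between low-melanin and 17.0 to 21.1 between high-melanin libraries. The pairs with glucose replicate 1 had the highest values, 57.4 and 95.4. The low-melanin replicate 1 library stood apart on the TPM scale. There, transcripts 7139 and 7140, of 63 and 108 bases, took 25.9% of all TPM, against 2.41% to 7.64% in the other 8 libraries. They took 1.11% of its estimated counts, and their effective lengths in it were 21.9 and 16.01 bases. Every other TPM value of that library is correspondingly smaller. It held the lowest low-melanin value, alone or tied, for 69 of the 77 members, being tied at 0 in 3901 and 6181. The same was so for 89.8% of the 12472 transcripts with a mean of at least 1 TPM. CPM scaled by TMM gives counts relative to the library total with a correction for composition. On that scale low-melanin replicate 1 held the lowest value, alone or tied, for 40 members. With TPM recomputed over transcripts of at least 300 bases, it did so for 37 of 66 members, against 38.7% of such transcripts.

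**Figure D1:**
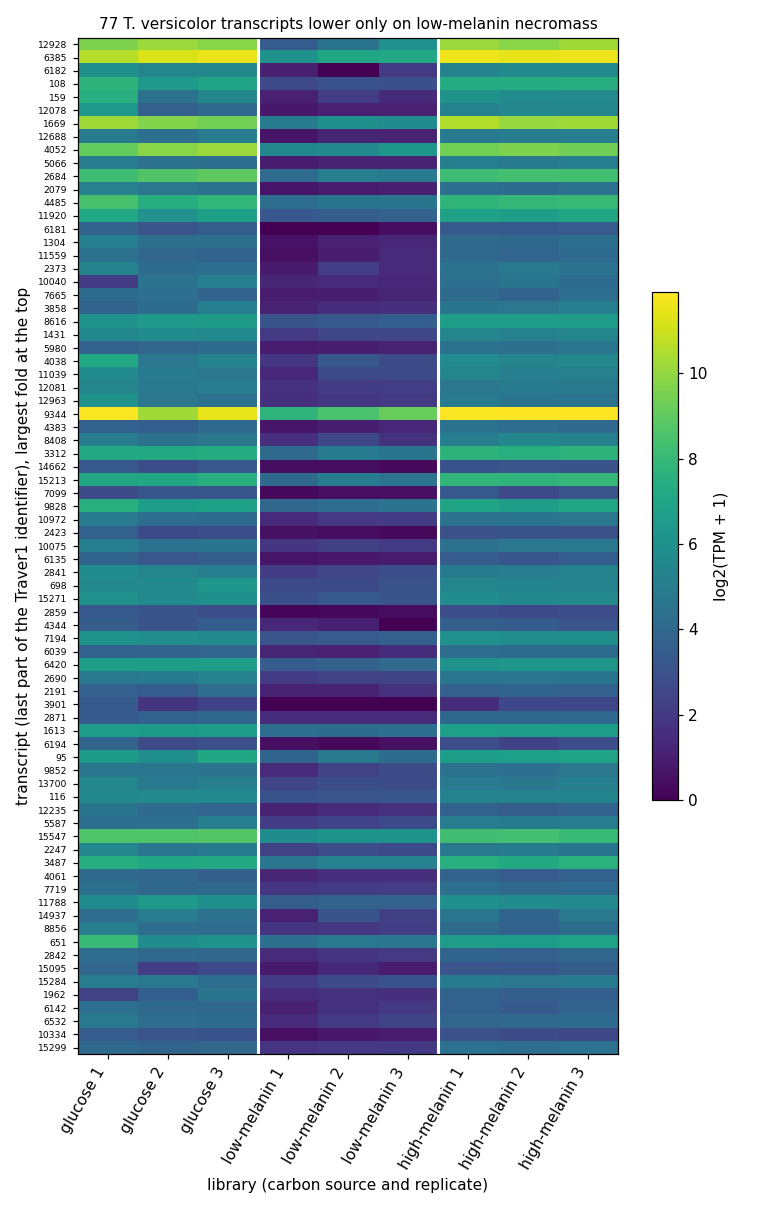
Each row is 1 of the 77 members, each column 1 library, and the colour gives log2(TPM + 1), with rows ordered by the smaller of the 2 folds over low-melanin necromass. The 3 low-melanin columns are darker than the 6 others in every row. The low-melanin replicate 1 column is the darkest of its group, alone or tied, in 69 rows.

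Together the members held 1.14% ± 0.15 of TPM in the glucose libraries, 0.110% ± 0.034 in the low-melanin libraries and 1.34% ± 0.044 in the high-melanin libraries (SD, n = 3). As a share of estimated counts these were 0.929% ± 0.14, 0.0897% ± 0.014 and 0.963% ± 0.021. The 4 most abundant members held 57.1% to 59.99% of the members' TPM in the glucose libraries, 44.4% to 57.8% in the low-melanin and 66.2% to 68.2% in the high-melanin libraries. Of the members' estimated counts they held less, 29.8% to 40.5%, 25.1% to 35.2% and 44.3% to 45.6%. Without these 4 the shares of TPM were 0.472% ± 0.050, 0.0526% ± 0.010 and 0.439% ± 0.0065. The median member stood at 22.1 to 33.1 TPM in the glucose libraries, 2.03 to 3.44 TPM in the low-melanin libraries and 25.8 to 27.3 TPM in the high-melanin libraries.

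The members were reduced rather than absent on low-melanin necromass. Their mean there was at least 1 TPM for 65 members and at least 10 TPM for 18, and under 1 TPM for 12. A single member, 3901, had no counts in any low-melanin library. Across all 77, the smaller of the folds of glucose and of high-melanin over low-melanin necromass (TPM + 1) ran from 4.004 to 27.7 with a median of 5.998. It was at least 6 for 38 members, at least 10 for 13 and at least 16 for 7. Between the lowest of the 6 higher libraries and the highest low-melanin library, the ratio was from 1.72 to 20.9 with a median of 5.15, in the 76 members with any low-melanin count. The value of 20.9 belongs to 6181 and rests on a single low-melanin count, and among members with more than 1 count in a low-melanin library the highest ratio was 18.1, in 2859.

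The steps of the rule show how the class sits among its neighbours. Glucose was at least 4 times low-melanin necromass for 460 transcripts, 2.95% of all. Of these, 159, or 34.6%, also had a high-melanin mean at least 4 times the low-melanin mean. Those 159 divide into the 77 members, 38 in which high-melanin was at least 1.5 times glucose, and 44 in which it was at or under 0.667 of glucose. The part of the rule on overlap removed none of them. Over the whole table the highest low-melanin value lay below the other 6 libraries for 19.9% of transcripts. With the necromass types exchanged in the rule, 258 transcripts passed the first step, 32 of these, or 12.4%, the second, and 13 the whole rule. A further 80 were lower by at least 4 times on both necromass types at like levels. These counts come from overlapping libraries and are given without a test. They rest on TPM as deposited, where transcripts 7139 and 7140 make the other values of low-melanin replicate 1 smaller. Over the 12472 transcripts with a mean of at least 1 TPM, the median log2 ratio to glucose was -0.16 for the low-melanin type. It was 0.03 for the high-melanin type. The exchanged rule was not run on another scale, so how far the scale sets the difference between the counts was not tested.

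**Figure D2:**
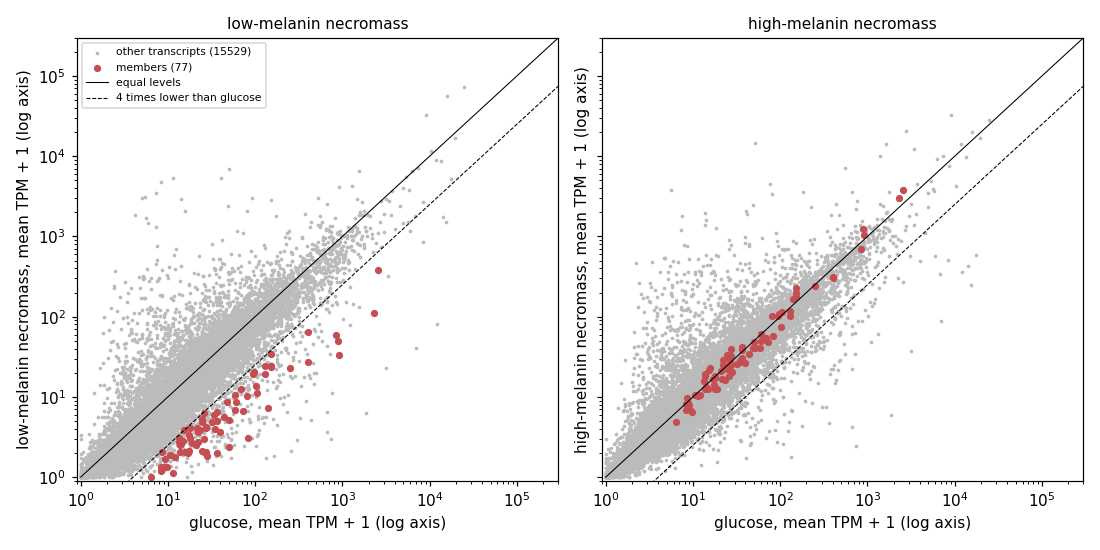
Mean TPM + 1 on low-melanin necromass (left) and on high-melanin necromass (right) against glucose, on log axes, with the 77 members in red and the 15529 other transcripts in grey. On the left every member lies on or below the dashed line of a 4-fold decrease, and on the right the members lie along the line of equal levels, as the rule requires.

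On average over the 6 glucose and high-melanin libraries, 3 members reached 1000 TPM, 16 reached 100 TPM and 10 were under 10 TPM. Transcript 9344 (462 bases) was the most abundant. It stood at 3710.6, 1177.3 and 2868 TPM in glucose replicates 1, 2 and 3, at 216, 359 and 556 TPM in the low-melanin libraries and at 3652, 3772 and 3847 TPM in the high-melanin libraries. Its glucose replicate 1 was 3.15 times replicate 2, while its high-melanin libraries were nearly equal, and no low-melanin value reached the lowest of the others. In edgeR's fit across all transcripts its log2 fold change was -2.45 ± 0.38 (SE) for low-melanin necromass against glucose and 3.14 ± 0.39 for high-melanin against low-melanin necromass.

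Transcript 6385 (669 bases) combined a high level with a large decrease. It was at 1524, 2440.5 and 2999 TPM on glucose, at 69.1, 125 and 139 TPM on low-melanin necromass and at 3109, 2833 and 3001 TPM on high-melanin necromass. Every low-melanin value was more than 10 times below every other value, and glucose replicate 1 was the lowest of the 6 high libraries. The log2 fold changes were -4.18 ± 0.27 (SE) against glucose and 4.57 ± 0.28 for high-melanin over low-melanin necromass.

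Transcript 1669 (294 bases) was at 1203, 822 and 657 TPM on glucose, 29.9, 62.7 and 55.1 TPM on low-melanin and 1477, 1072 and 1203 TPM on high-melanin necromass. Its glucose and high-melanin ranges overlapped and the low-melanin range lay far below both. Transcript 12928 (225 bases) had the largest fold of all members. Its values were 784, 1097 and 881 TPM on glucose, 9.91, 23.1 and 63.6 TPM on low-melanin and 1094, 876 and 1168 TPM on high-melanin necromass. Of all members it had the largest SD of log2(TPM + 1) among low-melanin libraries, with replicate 3 highest. Without that library its log2 fold change against glucose went from -4.62 to -5.54 and that of high-melanin over low-melanin from 4.77 to 5.69. Transcript 4052, of 123 bases, was at 539, 880.1 and 1094 TPM on glucose, 46.6, 50.1 and 78.6 TPM on low-melanin and 667, 783 and 648 TPM on high-melanin necromass. Here the glucose range enclosed the high-melanin range.

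The next 5 by level had transcripts of 339 to 1839 bases. Transcript 2684 was at 296, 409 and 489 TPM on glucose, 17.0, 33.1 and 28.7 TPM on low-melanin and 294, 327 and 313 TPM on high-melanin necromass. Transcript 4485 was at 351, 168 and 234 TPM, 19.0, 23.9 and 23.9 TPM, and 220.1, 241 and 269 TPM in the same order. For both, the glucose values spread more widely than the high-melanin values, and the ranges overlapped. Transcript 15547 was tight in every group, at 401, 390.3 and 420.5 TPM on glucose, 54.0, 68.8 and 69.7 TPM on low-melanin and 305, 324 and 270.1 TPM on high-melanin necromass, so that all 3 high-melanin values lay below all 3 glucose values. The reverse order held for 15213, whose glucose values of 138, 139 and 178 TPM lay below its high-melanin values of 220.0, 213 and 246 TPM, with 16.4, 32.4 and 21.9 TPM on low-melanin necromass. Transcript 3312 likewise went from 145, 148 and 164 TPM on glucose to 207, 181 and 208 TPM on high-melanin necromass, with 16.1, 28.2 and 23.0 TPM on low-melanin necromass.

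**Figure D3:**
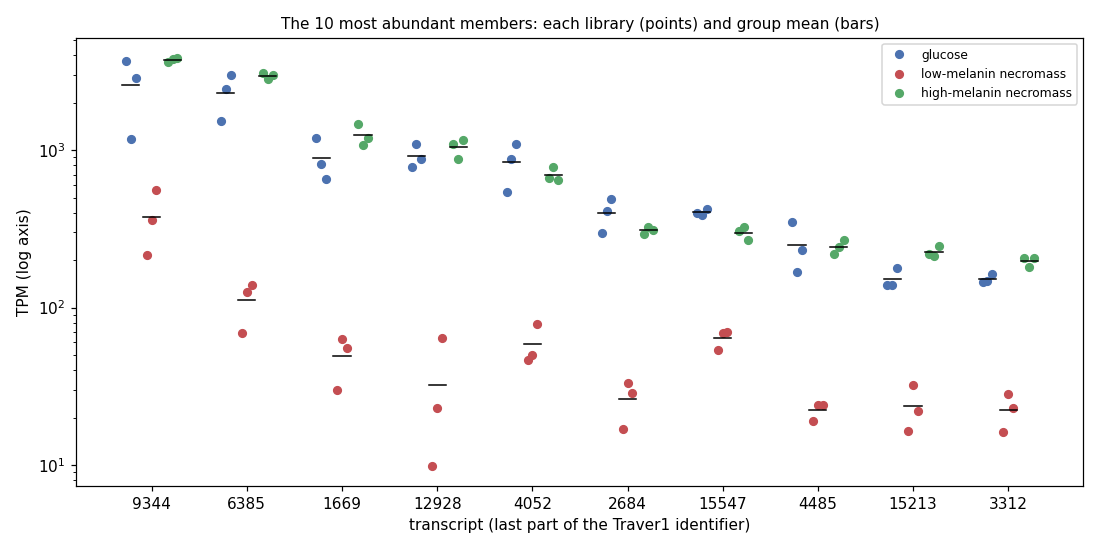
TPM (log axis) of the 10 most abundant members in each library, as points coloured by carbon source with a bar at the mean of the 3 libraries. For all 10 the low-melanin points lie below every other point, and the glucose points of 9344 and 4052 spread more than their high-melanin points.

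Among less abundant members, several showed folds as large. Transcript 12688 (1137 bases) was at 28.5, 19.1 and 30.6 TPM on glucose, 0.590, 1.37 and 1.17 TPM on low-melanin and 29.7, 30.6 and 33.1 TPM on high-melanin necromass. Glucose and high-melanin libraries overlapped, and on low-melanin necromass the transcript was close to 1 TPM. Its log2 fold changes were -4.52 ± 0.23 (SE) against glucose and 4.74 ± 0.23 for high-melanin over low-melanin necromass. Transcript 5066 (966 bases) was at 31.0, 21.4 and 18.7 TPM on glucose, 0.964, 1.17 and 1.18 TPM on low-melanin and 34.7, 29.4 and 33.0 TPM on high-melanin necromass. Transcript 108 (279 bases) was at 208, 83.6 and 123 TPM, 5.19, 6.91 and 6.46 TPM, and 159, 166 and 171 TPM in the same order. Its low-melanin and high-melanin libraries were each close together while glucose replicate 1 was 2.49 times glucose replicate 2.

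Ordered by abundance, the 25 members with the lowest levels (4.64 to 17.97 TPM over the 6 higher libraries) had a median fold of 4.91 and none above 9.18. The 26 in the middle (18.2 to 45.0 TPM) had a median of 6.85, and the 26 highest (48.2 to 3171 TPM) a median of 6.69. Adding 1 TPM to each mean limits the fold that a transcript at a low level can reach.

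For some members the glucose libraries disagreed. In 64 of the 77, every glucose library was within 2 times of the high-melanin mean, and in 13 at least 1 was not. Within glucose, the highest library was at least 2 times the lowest for 25.97% of members, against 8.95% of the 12472 transcripts with a mean of at least 1 TPM. The same shares were 32.5% against 7.17% on low-melanin and 1.30% against 3.12% on high-melanin necromass. The median SD of log2(TPM + 1) of the members was 0.338 within glucose, 0.255 within low-melanin and 0.138 within high-melanin necromass, beside 0.188, 0.201 and 0.138 over those 12472 transcripts. The rule itself bears on these spreads, and they were not tested.

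For 9 members, or 11.7%, glucose replicate 1 was the highest of all 9 libraries and at least 2 times each other glucose library, and glucose replicate 1 was at least 2 times each other glucose library for 2.16% of the 12472 transcripts. They were 651, 159, 4038, 12078, 12963, 2373, 15095, 6194 and 3901. Transcript 159 (684 bases) was at 182, 21.3 and 43.8 TPM on glucose, 1.14, 3.45 and 1.66 TPM on low-melanin and 67.6, 52.7 and 48.1 TPM on high-melanin necromass. Without glucose replicate 1 its log2 fold change for high-melanin necromass against glucose went from -0.47 ± 0.73 (SE) to 0.81, and for low-melanin against glucose from -5.06 ± 0.95 to -3.77. Transcript 12078 (2715 bases) was at 79.5, 11.6 and 15.6 TPM on glucose, 0.773, 1.14 and 1.16 TPM on low-melanin and 37.0, 44.4 and 41.1 TPM on high-melanin necromass. Without that library the same log2 fold changes went from 0.11 ± 0.71 to 1.52 and from -5.06 ± 0.88 to -3.65. The level of 12078 is uncertain, because kallisto shared some of its reads with like transcripts.

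The opposite disagreement was seen in 10040 and 1962, whose value in glucose replicate 1 was at most 0.5 of each other glucose value. Transcript 10040 (1716 bases) was at 3.37, 22.1 and 34.1 TPM on glucose, 1.40, 1.64 and 1.48 TPM on low-melanin and 19.1, 23.5 and 16.7 TPM on high-melanin necromass. Transcript 1962 (1701 bases) was at 4.05, 10.7 and 23.0 TPM on glucose, 1.85, 2.21 and 2.09 TPM on low-melanin and 12.7, 11.2 and 10.7 TPM on high-melanin necromass. In both, the glucose mean lay near the high-melanin mean although the glucose libraries ran from below to above the high-melanin range. Without glucose replicate 3 the log2 fold change of 10040 against glucose was -2.95 on low-melanin necromass in place of -3.61, and 0.60 on high-melanin necromass in place of -0.05.

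**Figure D4:**
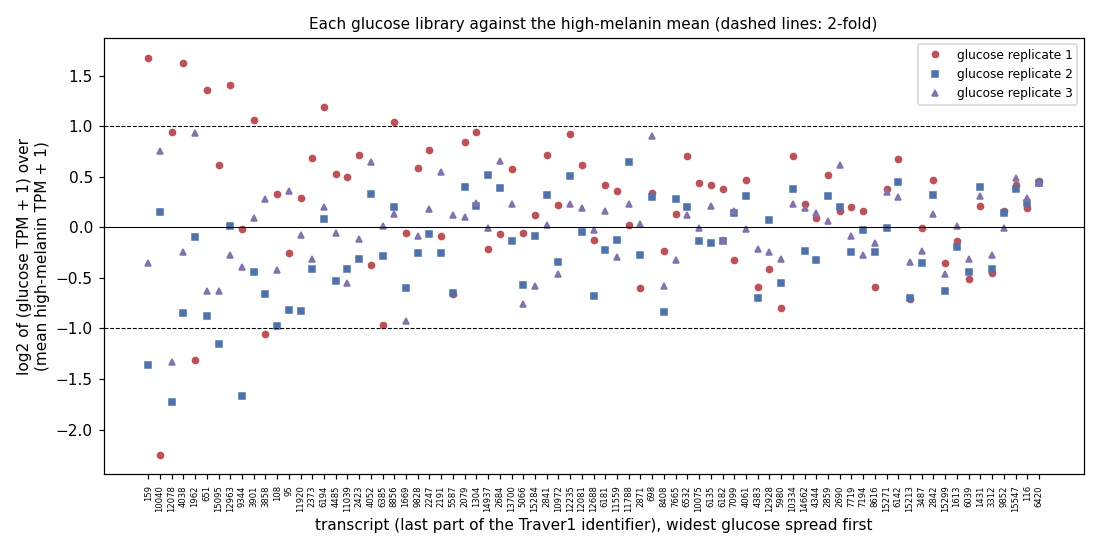
For each of the 77 members, the log2 ratio of each glucose library (TPM + 1) to the mean of the 3 high-melanin libraries (TPM + 1), ordered by the spread of the glucose libraries, with dashed lines at 2-fold. In 13 members at least 1 glucose library lies outside the dashed lines, and at the left end of the plot glucose replicate 1 is often the highest point and in 10040 and 1962 the lowest.

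Between glucose and high-melanin necromass, the ranges of the 3 libraries overlapped for 56 members. High-melanin values lay wholly above glucose values for 8 members, beside 25.6% of all transcripts, and wholly below for 13, beside 24.8%. The rule held this ratio within 1.5-fold, so these counts are a description. Those wholly above were 15213, 3312, 8616, 8408, 5980, 15299, 4383 and 6039. At the edges of the permitted ratio, high-melanin over glucose (TPM + 1) was 1.49 for 15213 and 1.45 for 5980, and 0.668 and 0.669 for the pair with the lowest ratios, 12235 and 6194. Transcript 5980 (2469 bases) was at 12.1, 14.5 and 17.3 TPM on glucose, 0.933, 0.987 and 1.26 TPM on low-melanin and 21.0, 19.9 and 24.2 TPM on high-melanin necromass. Transcript 12235 (687 bases) was at 22.9, 17.0 and 13.9 TPM on glucose and 12.0, 10.5 and 12.4 TPM on high-melanin necromass, with 1.19, 1.71 and 2.19 TPM on low-melanin necromass.

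The estimated counts were also fitted across all 13340 transcripts with enough counts, with edgeR's quasi-likelihood test and a call at a Benjamini-Hochberg adjusted p under 0.05. All members but 3901 entered. On low-melanin necromass against glucose 76 of 76 were called lower, where 32.4% of the transcripts tested were called lower. For high-melanin against low-melanin necromass 76 of 76 were called higher, where 26.3% of those tested were. Over the 12472 transcripts with a mean of at least 1 TPM, the median log2 ratio of TPM + 1 was -0.16 for low-melanin necromass over glucose, and on that scale the whole table was slightly lower. These contrasts are the ones that chose the members, and they share the low-melanin libraries, so nothing is read from the counts. The log2 fold changes of the 76 ran from -5.68 to -1.96 with a median of -2.95 against glucose, beside a median of -0.04 over all transcripts tested. They ran from 1.93 to 5.51 with a median of 3.03 for high-melanin over low-melanin necromass, beside -0.01.

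For high-melanin necromass against glucose, 8 members were called higher and 14 lower, where 26.8% of the transcripts tested were called higher and 27.7% lower. The members' log2 fold changes ran from -0.67 to 0.68 with a median of -0.12. The rule fixed this narrow range. Those called higher had log2 fold changes from 0.42 to 0.67 and included 1669 (0.61 ± 0.19, SE), 15213 (0.54 ± 0.16) and 5980 (0.49 ± 0.13). Those called lower included 12235 (-0.59 ± 0.17), 4052 (-0.57 ± 0.19) and 15547 (-0.29 ± 0.11). The counts moved with single libraries. Members called higher numbered 14 without glucose replicate 1, 13 without glucose replicate 3 and 4 without glucose replicate 2, high-melanin replicate 1 or high-melanin replicate 2. Members called lower numbered 8, 7 and 4 without high-melanin replicates 1, 2 and 3. With upper-quartile scaling 2 were called higher and 25 lower. Over all transcripts that scaling also gave fewer called higher and more called lower, and the median log2 fold change moved from -0.01 to -0.16. Without the single libraries named, the number called over all transcripts moved in the same direction as for members, except without glucose replicate 3. These moves were therefore not limited to members, and their sizes were not compared.

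Leaving out 1 library at a time, members were chosen by the rule from the other 8 and then read in the library left out. Only the values of the left-out library were unused by the choice. The libraries it was set against had chosen the members, and the background transcripts were not so chosen. Part of each difference from the background is therefore built in. Without low-melanin replicate 1, 65 members were chosen, and in that library all 65 were below every glucose and high-melanin library, against 47.5% of transcripts with a mean of at least 1 TPM. For low-melanin replicate 2 this held for 82 of 82 members against 26.9%, and for replicate 3 for 90 of 90 against 27.9%. The mean of the other 6 libraries over the library left out (TPM + 1) had a median of 9.24, 5.91 and 5.51 among the members so chosen. Over the background transcripts the medians were 1.33, 1.07 and 1.08. Both the glucose and the high-melanin means were at least 4 times the left-out library for 64 of 65, 66 of 82 and 66 of 90 members. Over the background transcripts the shares were 1.92%, 1.19% and 1.14%. Transcripts 7139 and 7140 make the other TPM values of low-melanin replicate 1 smaller. Its ratios and shares are therefore not on a like scale with those of replicates 2 and 3.

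When a glucose library was left out, it lay above every low-melanin library for all members chosen without it, 79, 84 and 72 for replicates 1, 2 and 3, against 50.02%, 47.1% and 47.8% of background transcripts. It was at least 4 times the low-melanin mean for 70 of 79, 62 of 84 and 65 of 72, against 4.60%, 3.27% and 3.67%. The least of these ratios was 1.61, in replicate 2. When a high-melanin library was left out, it was above every low-melanin library for 74, 81 and 72 of as many members, against 46.8%, 42.7% and 54.0%. It was at least 4 times the low-melanin mean for 70, 73 and 68 of them, against 3.73%, 3.43% and 3.77%. The low-melanin values used here had chosen the members, so these shares are in part built in. The libraries left out are of the same groups as those that chose the members, so this describes agreement between the libraries at hand.

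Which transcripts met the rule depended on the libraries. Of the 77, 40 were chosen again without each of the 9 libraries in turn. Leaving out glucose replicate 1, 2 or 3 dropped 13, 11 and 20 members, leaving out low-melanin replicate 1 dropped 13, and leaving out low-melanin replicate 2 or 3 dropped none. Low-melanin replicate 1 held the lowest low-melanin TPM, alone or tied, for 69 members, and transcripts 7139 and 7140 make its other values smaller. The lack of drops for low-melanin replicates 2 and 3 is therefore not read as stability. Leaving out high-melanin replicate 1, 2 or 3 dropped 10, 2 and 9. Among the 10 most abundant members, 12928, 4052, 2684, 15547, 4485 and 3312 were among the 40, while 9344, 6385, 1669 and 15213 were not. Across 22 alternatives to the rule, 7 members were kept by every one. These were 12688, 1431, 4485, 12081, 11920, 8616 and 9828.

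Those 7 ran from 537 to 2127 bases. Transcript 11920 (2127 bases) was at 139, 63.4 and 108 TPM on glucose, 8.38, 10.4 and 12.3 TPM on low-melanin and 113, 97.5 and 131 TPM on high-melanin necromass. Transcript 8616 (915 bases) was at 66.3, 84.2 and 89.6 TPM, 7.55, 9.37 and 10.9 TPM, and 102, 103 and 95.3 TPM in the same order. Transcript 9828 (537 bases) was at 177, 98.4 and 111 TPM, 14.1, 18.4 and 22.5 TPM, and 123, 103 and 128 TPM. For each of these the lowest of the 6 higher values was at least 4 times the highest low-melanin value. Transcript 1431 (930 bases) was at 46.5, 53.2 and 50.04 TPM, 3.08, 4.80 and 4.79 TPM, and 41.8, 36.7 and 42.0 TPM. Transcript 12081 (1854 bases) was at 42.4, 26.3 and 31.1 TPM, 2.29, 3.15 and 3.44 TPM, and 25.7, 28.7 and 27.3 TPM.

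The members just inside the fold threshold were 15299, 10334 and 6532, with folds of 4.004, 4.03 and 4.07. Transcript 15299 (1467 bases) was at 15.7, 12.8 and 14.6 TPM on glucose, 2.56, 2.93 and 3.03 TPM on low-melanin and 21.2, 18.5 and 21.5 TPM on high-melanin necromass. The transcripts just outside, which met every other part of the rule, were 338, 9691 and 2422, with folds of 3.99, 3.97 and 3.96. Transcript 9691 was at 31.7, 28.2 and 31.9 TPM on glucose, 4.15, 8.14 and 8.57 TPM on low-melanin and 34.6, 31.5 and 31.2 TPM on high-melanin necromass. Its pattern was like that of members.

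Transcript length was not part of the rule, although TPM depends on it. Of the 15606 transcript models 99.6%, and all 77 members, have lengths that are multiples of 3, so these are coding lengths. The members ran from 123 to 4665 bases with a median of 966 (quartiles 543 and 1389). The median of the 12472 transcripts with a mean of at least 1 TPM was 1119 (quartiles 674 and 1707). Members shorter than 300 bases numbered 11, or 14.3%, against 6.94% of those transcripts, and they made up 5 of the 10 largest folds. The mean fragment length that kallisto used was 291 to 344 bases in the glucose libraries, 249 to 274 in the low-melanin and 267 to 293 in the high-melanin libraries. A TPM of a transcript shorter than its fragments rests on a small effective length.

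The short members hold few counts for their TPM. Transcript 6182 (135 bases) was at 61.6, 42.9 and 43.1 TPM on glucose, from 85, 52 and 51 counts. On low-melanin necromass its counts were 1, 0 and 3, and on high-melanin necromass 34, 50 and 36, or 38.8, 51.6 and 51.3 TPM. Without low-melanin replicate 2 or 3 its log2 fold change against glucose was -4.47 or -6.25 in place of -5.06, and without replicate 3 its log2 fold change of high-melanin over low-melanin was 5.83 in place of 4.65. Transcript 6181 (228 bases) had 35, 25 and 28 counts on glucose, 0, 0 and 1 on low-melanin and 24, 23 and 20 on high-melanin necromass. Transcript 3901 (150 bases) had 14, 4 and 6 counts on glucose, none on low-melanin and 2, 6 and 4 on high-melanin necromass. A count of 0 in 1 library taken alone allows up to 3 counts, close to the 2 to 6 on high-melanin necromass. All 3 low-melanin libraries were at 0, which together bound the level more closely. The counts on the other carbon sources are few, so the fold of 3901 is uncertain. From TPM + 1 it was 4.91, and this value is part of the fold summaries over members.

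The folds of the short members depended on the scale. The smaller of their folds had a median of 9.18 from TPM + 1 and 3.29 from CPM + 1, and 4 of 11 stayed at 4 or more. For the 66 longer members the medians were 5.92 and 5.36, and 55 stayed at 4 or more. Over the 6 higher libraries the short members had a median of 5.73 CPM and the longer ones 46.3 CPM, and at few CPM the added 1 reduces the fold. In edgeR's fit of the counts, which adds no such 1, the 10 short members tested had a median log2 fold change of -3.92 against glucose, beside -2.92 for the 66 longer members. For high-melanin over low-melanin necromass the medians were 3.94 and 2.97. Transcript 6181 had a fold of 2.02 from CPM + 1 and a log2 fold change of -5.68 against glucose. On the CPM scale the highest low-melanin value lay below the other 6 libraries for 77 of 77 members, beside 16.8% of all transcripts, and since the rule chose members by the same order of the same libraries in TPM, nothing is read from this count. With TPM recomputed over transcripts of at least 300 bases, 67 transcripts met the rule, 59 of them among those 66 members.

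**Figure D5:**
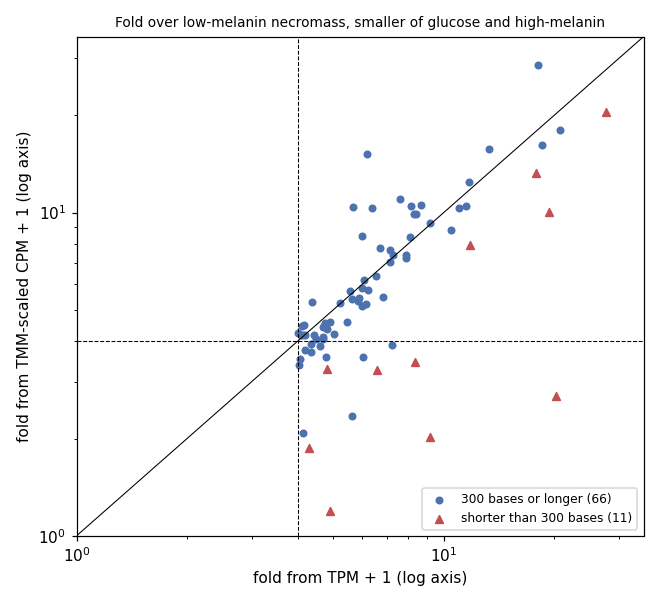
For each member, the smaller of the folds of glucose and high-melanin over low-melanin necromass computed from TMM-scaled CPM + 1 against the same from TPM + 1, on log axes, with dashed lines at 4. The 11 members shorter than 300 bases (triangles) lie below the diagonal of equal folds, and 7 of them lie under 4 on the CPM scale.

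Reads shared with like transcripts show as estimated counts that are not whole. With a tolerance of 0.01 this was so in 5 members, or 6.49%, against 6.11% of the 12472 transcripts. These were 12078, 9852, 14937, 15095 and 6194, and their levels are uncertain. Transcript 14937 (186 bases) was at 18.2, 30.9 and 21.1 TPM on glucose, 1.13, 7.63 and 3.83 TPM on low-melanin and 24.6, 13.1 and 26.1 TPM on high-melanin necromass. Without low-melanin replicate 2 its log2 fold change went from -2.30 to -2.95 against glucose and from 2.00 to 2.66 for high-melanin over low-melanin necromass.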

How the data were processed

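TRIzol and PureLink columns gave the RNA and a NEBNext Ultra II kit the libraries, per the labels' protocols. The tools named in the submitters' processing notes are DESeq2 1.48.2 and kallisto 0.51.1. The transcript set, genome build and strand setting are not given in the sources used here. The authors deposited estimated counts, TPM, and other per-transcript values (length and effective length) for each library. Groups came from the sample labels. The members were found from the deposited TPM. Estimated counts were rounded, filtered with filterByExpr (13340 transcripts left), scaled with TMM and fitted over the 9 libraries with edgeR 4.0.16 (glmQLFit, robust, and glmQLFTest) in R 4.3.3, with 1 term for carbon source and Benjamini-Hochberg adjustment. The SE of a log2 fold change is its size over the square root of F. The test was also run on simulated counts, drawn with the spread that edgeR itself estimated. That run cannot show how the test behaves where a library deviates, so nothing is drawn from it here. The fit knows only how these libraries vary, and that variation may be technical. The members and lists were chosen with earlier results of these data known. Named transcripts are the 10 most abundant members, the 10 with the largest fold, those nearest each limit of the rule, those with the largest replicate spread, and the one that failed the count filter. Those named for disagreeing glucose libraries, for holding under every alternative, for divided counts or for few counts were named after their values were seen, as were transcripts 7139 and 7140. Lists by function could not be made, since no annotation of this fungus was used here.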

Additional observations from a re-analysis of the deposited data

How the results depend on the processing

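The number of members depends on the limits of the rule. It was 153 with a fold of at least 3, 38 with at least 6, 153 and 36 with 0.1 and 5 TPM added to each mean, and 44 with a narrower range for high-melanin over glucose. The other alternatives gave 63 to 114, including 63 with TPM divided by TMM factors, of which 56 were among the 77, and 67 with CPM, of which 54 were. Leaving out 1 library gave 65 to 90. Chosen after seeing the data, medians gave 76, at least 50 counts on average 72, every glucose library within 2 times of high-melanin 64, and TPM over transcripts of at least 300 bases 67. For high-melanin necromass against glucose, members called higher numbered 2 with upper-quartile scaling, 4 by library size alone, 3 with effective length offsets and 4 to 14 without 1 library. Members called lower numbered 25 with upper-quartile scaling, 22 by library size alone and 4 to 17 without 1 library. Over all transcripts, upper-quartile scaling, library size alone and effective length offsets also gave fewer called higher and more called lower. The cause was not tested. The median log2 fold change of all transcripts for low-melanin necromass against glucose moved from -0.04 to -0.28 with upper-quartile scaling, -0.32 by library size alone and -0.16 with effective length offsets, and for high-melanin necromass against glucose from -0.01 to -0.16, -0.11 and -0.08. Between the necromass types it moved from -0.01 to 0.17 by library size alone. Over all alternatives, DESeq2 1.42.0 included, members called lower on low-melanin necromass than on glucose ran from 76 to 77. Those called higher between the necromass types ran from 74 to 77. In the main fit 32.4% and 26.3% of all transcripts tested were so called. These contrasts chose the members, so nothing is read from the members' calls in them. Of 1377 recomputed log2 fold changes of named transcripts, 1280 moved by at most 1 SE and no called value changed sign. Same-numbered libraries did not deviate together, with correlations from -0.22 to 0.07. With the replicate number as a block, 7 members were called higher and 13 lower on high-melanin necromass against glucose, all 76 tested were called in the comparisons with low-melanin necromass, and no call count moved by over 1.5 times.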
